A study of Mus musculus with 9 samples.

Results

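The marker-negative fraction was the sorted population of mouse prostate cells labelled CD44-CD133-Sca-1-CD117-, taken directly from prostates of BL6 mice, and it filled 6 of the 9 arrays of the series. These 6 arrays were chosen by that label alone. The series' design text calls the cells Lin-, meaning that cells stained for lineage antigens were removed, without naming the antigens, and the labels call them non-stem cells. The other 3 arrays carried cells positive for all 4 surface proteins and entered none of the values below, other than 1 alternative estimate of the spread. On each array the fraction's RNA carried the red dye Cy5 and a commercial RNA pool, Universal Mouse Reference from Stratagene, carried the green dye Cy3. No age, treatment or number of animals per sample is given in the labels. The question here is what this fraction holds relative to the pool.

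Universal Mouse Reference is total RNA pooled from cultured mouse cell lines of many tissues, made so that most genes give some signal in the reference channel. A ratio to it therefore sets sorted tissue cells against a mixture of dividing cultured cells. The mouse prostate is a branched gland whose ducts carry luminal cells, which secrete proteins under the control of androgen, over a thinner layer of basal cells, with rare neuroendocrine cells between them and smooth muscle, fibroblasts, vessels, nerves and resident leukocytes around them. CD44, Sca-1 (Ly6a) and CD117 (Kit) have been used with CD133 (Prom1) to enrich prostate cells that can rebuild ducts.

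A value below is a log2 ratio of fraction over pool, so that 1 is a doubling and -1 a halving. It is given as the mean ± SD over the 6 arrays unless a single array is named, and the adjusted p comes from limma's moderated test of that mean against 0. Dye and sample cannot be told apart, since no array had the dyes swapped. The pool is 1 RNA preparation, so the test leaves out its own spread. Whether the 6 arrays stand for separate animals is not given, and the p-values then speak only for the spread among these arrays. An amplification step is stated for the sorted RNA and for the pool it is not. Probes of the array were well above background in Cy5 for 47.5% to 69.5% of the total on an array and in Cy3 for 70.7% to 79.2%. Replicate 3 had the lowest Cy5 share. Log2 ratios of the 15 pairs of arrays correlated over probes at 0.678 to 0.906, with a median of 0.779, and the 2 pairs on a shared slide at 0.726 and 0.746.

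Of 20936 genes or transcripts tested, 7237 (34.6%) were higher in the fraction than in the pool and 6502 (31.1%) were lower, at an adjusted p under 0.05. At least 2-fold, 3764 (18.0%) were higher and 3700 (17.7%) lower. So a call alone says little about a gene here, and each count below is to be read against these shares. The median log2 ratio of all genes was 0.09. With the scanner software's own processed signals, centred on the median of each array, 42.7% of the calls were higher in place of 52.7%. A mean log2 ratio of at least 5 was reached by 122 genes, and -5 or less by 11.

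Among genes measured in both channels on at least 4 arrays, the highest ratios were those of Defb50 and Pbsn. Defb50, a beta-defensin, had a log2 ratio of 10.27 ± 0.44, with single arrays between 9.86 and 11 (adjusted p = 4.63e-08). Pbsn (probasin), an androgen-driven secretory protein of the mouse prostate, followed at 9.54 ± 0.32 (9.08 to 10.05, adjusted p = 3.68e-08). Its probe lies on chromosome X from 73231673 to 73231732 in build mm7, the build of all probe positions given here. No gene models of that build were used, so exons are not given. The next were the transcript 9530003J23Rik at 8.39, Msmb (a secreted microseminoprotein) at 8.34, Tgm4 (the transglutaminase that helps clot semen) at 8.11 and Svs5 (a seminal vesicle protein) at 7.8. Pate14, of a family of small secreted male-tract proteins, reached 7.5, Agr2, a disulfide isomerase of secretory cells, 7.36, and Ceacam2, an adhesion protein, 7.1. None of these 9 genes had an SD above 0.75.

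The other 3 of the 12 highest genes are known from leukocytes, and they varied more. Bcl2a1b, an antiapoptotic gene of haematopoietic cells that has close copies in the mouse genome, had a log2 ratio of 7.76 ± 2.08 with single arrays from 4.02 to 9.76. Cd83, a glycoprotein of activated dendritic cells and lymphocytes, had 7.54 ± 1.63 (4.36 to 8.81). Il2rb, a receptor chain for interleukins of lymphocytes, had 7.12 ± 0.93 (5.38 to 7.81). In all 3 the lowest value was that of replicate 2.

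**Figure D1:**
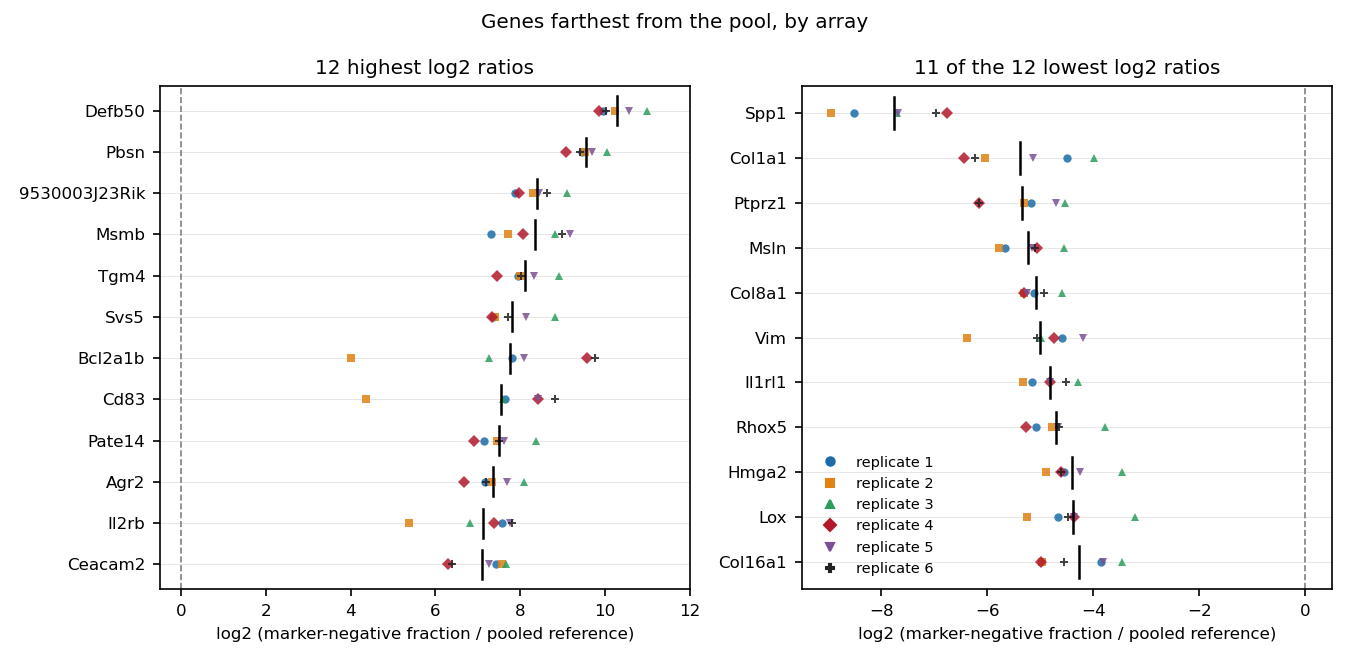
Log2 ratios of fraction over pool (x axis) for the 12 genes with the highest and 11 of the 12 with the lowest mean among those measured in both channels; each symbol is 1 of the 6 arrays and the black bar is their mean. Every array lies on the same side of 0 for all the genes drawn, and replicate 2 stands apart for Bcl2a1b and Cd83.

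The gene farthest below the pool was Spp1. Spp1 (osteopontin), a secreted phosphoprotein of matrix and bone, had a log2 ratio of -7.76 ± 0.85 with single arrays from -8.95 to -6.77 (adjusted p = 9.97e-07). Its probe lies on chromosome 5 from 103631152 to 103631211. Col1a1, the main fibrillar collagen chain, was at -5.39 ± 1.01, although the 3 probes tested for it ranged from -5.39 to 3.4. Ptprz1, a receptor phosphatase of neural cells, was at -5.34, with a second probe at 0.94. Msln (mesothelin) was at -5.23, Col8a1 at -5.08, and Vim (vimentin, the intermediate filament of mesenchymal cells) at -5 with a second probe at -0.54. Il1rl1, a receptor of the interleukin-1 family, was at -4.82. Rhox5, a homeobox gene active in many cultured lines, was at -4.71, Hmga2, a chromatin protein of embryonic and transformed cells, at -4.4 with another probe at -1.86, Lox, which crosslinks collagen, at -4.39 and Col16a1 at -4.27 with a second probe at -0.52. All 11 of these were lower on each of the 6 arrays. Probes of a gene did not always go the same way: of 6930 genes with at least 2 tested probes, 984 (14.2%) had 1 probe called higher and another called lower.

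Some genes were measured in 1 channel alone, so that their ratio is given as a bound on the mean over the 6 arrays. It was set against the gene's own signal in the dim channel or, where brighter, the dimmest signal there still well above background. In all, 32 genes were well above background in Cy5 on all 6 arrays and in Cy3 on none, against 686 the other way round. All of these genes passed the signal filter in 1 channel alone, so they had to differ, and no p-value is given for them. In the fraction alone, Defb1, a defensin of epithelia, was at least 54-fold above the pool. Cldn8, a tight junction claudin, was at least 41.4-fold above it, Mal2, an apical transport protein of epithelial cells, at least 21.3-fold, and Cyp7b1, an oxysterol hydroxylase, at least 7.14-fold. Klra8 and Klra9, Ly49 receptors of NK cells whose sequences are too alike for a probe to be sure of either, were at least 8.95-fold and 8.66-fold above it. In the pool alone, Ifi202b, an interferon-inducible gene, was at least 86.9-fold above the fraction, Rpl39l, a ribosomal protein paralog, at least 33.2-fold (its second probe was at -1.38), Mmp3, a matrix protease, at least 18.9-fold and Ndc80, a kinetochore protein, at least 10.4-fold. Bounds compare means of each channel after loess and Aquantile normalization, set 2 dyes against each other and are open to dye bias. They hold for the mean under the main processing and are no lower limit for single arrays or alternatives. Klra8, with a bound of 3.16 as log2, ran from 1.12 to 5.84 on single arrays and from 1.88 to 6.35 over the alternatives.

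Transcripts of the 4 proteins used for the sort did not all lie below the pool. Ly6a, which encodes Sca-1, was lower at -1.97 ± 0.94 (adjusted p = 0.0012) and Cd44 at -1.22 ± 0.59 (adjusted p = 0.0016), with its 3 probes between -1.31 and 0.02. Kit was higher at 1.41 ± 1.15 (adjusted p = 0.0121). Its values were 0.46, 0.51, 3.34, 1.62, 0.51 and 1.99 on replicates 1 to 6, so replicate 3 stood highest. Prom1 was well above background in Cy5 on all 6 arrays and in Cy3 on none, and the bound on its mean was 4.78-fold above the pool. Its log2 ratios ran from 1.05 to 3.29 on single arrays and from 1.72 to 6.08 over the alternatives. A second Prom1 probe was at 1.18. The Kit call was lost under 2 of 22 alternatives, among them the fit without replicates 4 and 6 (1.21, adjusted p = 0.094). The Cd44 and Ly6a calls were each lost under 1 of 23.

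Secretory genes of the prostate had the highest list median, although with processed signals that of seminal vesicle genes was higher (7.56), as were the seminal vesicle means on replicates 3, 4 and 6. Of 20 listed genes, which are made by luminal cells or driven by androgen, 14 were tested and 13 were higher (all genes, 34.6%), none was lower, and the median log2 ratio was 6.8 (all genes, 0.09). Azgp1, a zinc-binding secreted glycoprotein, was at 6.66 ± 0.3 (adjusted p = 1.42e-07), with values of 6.31, 6.66, 7.08, 6.37, 6.91 and 6.65 on replicates 1 to 6. The mean of the list lay between 5.92 and 6.31 on the 6 arrays, the narrowest of the epithelial lists.

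The promoter of probasin is shown because it is the classic androgen-driven promoter of this gland and its gene had the second highest ratio. Its 250 bases before the transcription start, chrX:77853501-77853750 on the minus strand in RefSeq's GRCm38.p6 table, read as follows. Capitals mark the reverse complement of TGTTCT, which is a part, and not the whole, of the site for the androgen receptor.
Pbsn: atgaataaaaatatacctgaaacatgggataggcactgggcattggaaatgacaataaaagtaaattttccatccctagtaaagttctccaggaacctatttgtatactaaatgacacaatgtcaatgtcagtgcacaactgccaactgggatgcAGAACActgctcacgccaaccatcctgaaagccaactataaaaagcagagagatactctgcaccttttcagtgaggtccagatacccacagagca
On either strand TGTTCT was in 3 of the 9 tested secretory genes that have an entry in the table (Pbsn, Sbp and Ceacam10) and in 18.2% of all 27025 gene symbols. A match to so short a motif is a description of the letters, not a binding site.

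Seminal vesicle genes were high too, and far less even. The seminal vesicle is the neighbouring gland, and its secretory proteins are seldom made by the prostate. All 6 tested members of 9 listed were higher, with a median of 5.06, but 4 of them passed the signal filter in Cy5 alone, so that they had to differ. Svs5 was close to even (7.34 to 8.83), and Pate4 ranged from 6.11 to 10.67. Svs4 had log2 ratios of 2.3, 3.03, 6.68, 8.61, 1.11 and 9.28 on replicates 1 to 6, and Svs2 had 4.43, 2.57, 4.01, 6.82, 4.53 and 7.42. Replicates 4 and 6 were the highest in both. Svs6 (3.92 ± 3.43, adjusted p = 0.015) was lost without replicates 4 and 6 (2.34, adjusted p = 0.121) and on means of slides (3.01, adjusted p = 0.0572). The list's mean was 3.59 to 3.86 on replicates 1, 2 and 5, 6.16 on replicate 3, and 7.17 and 7.48 on replicates 4 and 6. The part of seminal vesicle tissue in these arrays was not tested.

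Luminal epithelial genes were higher as a group. Of 25 listed, 24 were tested, 22 were higher and none lower, with a median of 2.58; 4 passed the filter in Cy5 alone. Hoxb13, the homeobox gene of the prostate, was at 5.78 ± 0.36 (5.25 to 6.14, adjusted p = 3.93e-07). The claudins Cldn3 (6.07 ± 0.47) and Cldn7 (4.24 ± 0.6), Prom2, a relative of CD133 (6.3 ± 0.84, with a second probe at 2.21), and Rab25, a GTPase of epithelial trafficking (4.64 ± 0.42), were all higher on every array. The list's mean ran from 2.31 on replicates 4 and 6 to 3.81 on replicate 2, so the arrays highest in seminal vesicle genes were lowest here. The 2 members not called were Cd38 at -0.16 and the keratin Krt18 at -0.28.

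Basal genes were mixed. Of 18 listed, 15 were tested, 7 were higher and 4 lower, with a median of 0.68. The basal keratins Krt15 (3.37 ± 1.01, adjusted p = 0.00013), Krt5 (2.61 ± 0.91, adjusted p = 0.000282) and Krt17 (2.09 ± 1.26, adjusted p = 0.00349) were higher. Krt5 was above the pool on each array, from 1.17 on replicate 3 to 3.76 on replicate 5. Trp63, the basal master regulator, was at -0.21 (adjusted p = 0.334) and Krt14 at 0.68 (adjusted p = 0.0932), neither called. Sfn, an adaptor of stratified epithelia, was lower at -1.5 ± 0.43 (adjusted p = 0.000205), but its 3 probes ranged from -1.5 to 2.81 and their mean was higher (0.73, adjusted p = 0.0257). Genes of the proximal duct and urothelium had 8 higher and 2 lower of 14 tested (median 0.9), led by Upk1b, a uroplakin of the urothelium, at 3.64 ± 0.91 (adjusted p = 7.05e-05). Clu, a secreted chaperone, was at 1.67 ± 0.79. Neuroendocrine genes had 7 higher and 1 lower of 11 tested (median 1). Chga, the chromogranin that marks such cells, was at 2.1 ± 0.52 (adjusted p = 0.000138) and Pcsk2, a prohormone convertase, at 1.46 ± 0.19, while Eno2, which other tissues and cultured cells also make, was at -2.07 ± 0.52.

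Stromal genes went the other way. Of 18 listed fibroblast and matrix genes all were tested, and 14 were lower (all genes, 31.1%) and 1 higher, with a median of -2.7. The crosslinking enzyme Loxl1 was at -3.23 ± 0.4 (adjusted p = 6.73e-06), fibronectin Fn1 at -3.32 ± 0.54, Col6a1 at -2.92 ± 0.48 and Pdgfra, a receptor of fibroblasts, at -3.53 ± 0.82 with a second probe at -0.46. The member called higher was Lum (lumican), with 4.36, 1.92, 3.8, 2.84, 3.16 and -1.3 on replicates 1 to 6 (2.46 ± 2.02, adjusted p = 0.0121, and 0.0597 with processed signals). Of 14 smooth muscle and pericyte genes 8 were lower and 1 higher (median -1.19). Tagln was at -3.48 ± 1.15, Smtn at -2 ± 0.5 and Mylk at -1.74 ± 0.53 (1 probe at 0.3), whereas Myh11, the smooth muscle myosin, was higher at 1.32 ± 0.68 (adjusted p = 0.00227). The smooth muscle mean was near 0 on replicates 1 (-0.28) and 5 (0.09) and between -2.1 and -1.25 on the other 4. In a ratio of whole-fraction RNA to this pool, fewer cells of a type, less RNA per cell and a high level in the pool's cultured lines cannot be told apart.

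Endothelial genes were mixed, with 8 higher and 3 lower of 14 tested and a median of 0.52. Emcn (endomucin) was at 4.29 ± 0.62 (3.25 to 5.11, adjusted p = 9.27e-06), Cldn5, the endothelial claudin, at 3.48 ± 1.59 and Kdr, the VEGF receptor, at 2.11 ± 1.14 (adjusted p = 0.00202). Pecam1 was lower at -1.07 ± 0.28 and was well above background in Cy5 on 1 array alone. The count of 8 fell to 4 without replicate 1 or replicate 5 and to 5 without replicate 2. Among 8 nerve and glia genes 5 were higher and none lower (median 1.12), and Sox10, the Schwann cell factor, was at 3.66 ± 0.24 (3.28 to 3.98, adjusted p = 2.26e-06), with Ngfr at 1.73 ± 0.45.

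**Figure D2:**
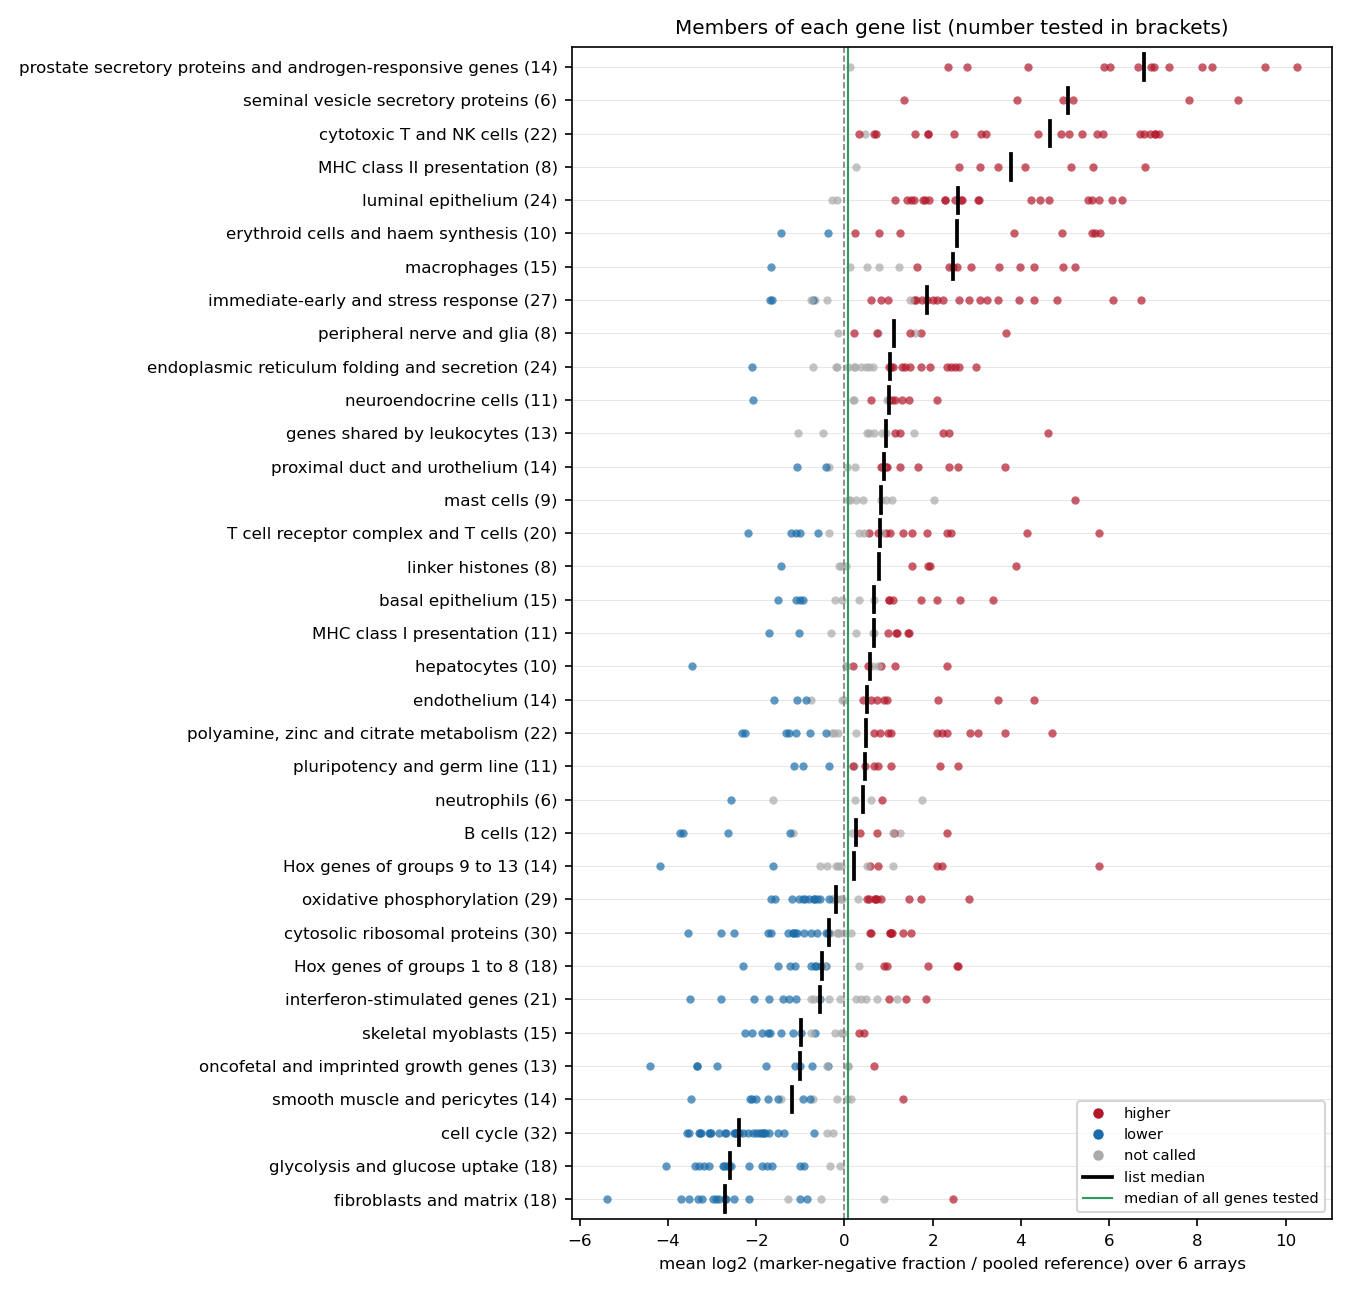
Mean log2 ratio of fraction over pool over the 6 arrays (x axis) for every tested member of 35 gene lists, ordered by list median; red points were called higher, blue lower and grey not called at an adjusted p under 0.05, the black bar is the list's median and the green line the median of all genes, 0.09. Prostate secretory genes (median 6.8) are at the top and fibroblast and matrix genes (-2.7) at the bottom.

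Genes of cytotoxic lymphocytes were far above the pool in this fraction, which the design text calls Lin-. Of 27 listed genes of cytotoxic T and NK cells, 22 were tested, 21 were higher and none lower, with a median of 4.65; 4 passed the filter in Cy5 alone. Gzmb, the granzyme that cleaves caspases in target cells (probe on chromosome 14, 51126432 to 51126491), was at 5.87 ± 0.34, with 5.73, 5.42, 6.25, 5.61, 6.23 and 5.97 on replicates 1 to 6 (adjusted p = 2.53e-07). Xcl1, a chemokine of activated lymphocytes, was at 6.93 ± 0.41, the granule protein Nkg7 at 5.73 ± 0.38 and Tbx21, the transcription factor T-bet, at 7.03 ± 1.35. Gzma reached 7.04 ± 1.63 and Gzmc 6.69 ± 1.55, and both were lowest on replicate 2 (4.71 and 4.06). Gzmm was only 0.71 ± 0.42 (adjusted p = 0.0117, and 0.0554 without replicates 4 and 6), and Gzmd stood at 0.47 ± 0.51 (adjusted p = 0.0654). Gzmd passed the threshold under median centring (0.41, adjusted p = 0.0468), with probes measured in both channels on all 6 arrays (0.47, adjusted p = 0.0385) and with the spread of all 9 arrays (0.47, adjusted p = 0.0472).

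Genes of the T cell receptor complex were less uniform. Of 20 tested, 11 were higher and 5 lower, with a median of 0.8. Cd3d, a chain of the receptor's signalling module, was at 5.76 ± 1.38 (3.21 to 7.21, adjusted p = 4.05e-05), and Cd8a, the coreceptor of cytotoxic T cells, at 4.14 ± 1.18, though its 3 probes ranged from 0.4 to 4.14. Cd8b1, which pairs with it, was at 0.33 (adjusted p = 0.182), with a second probe at 2.68. Tcf7, a factor of naive T cells, was lower at -2.19 ± 0.47. B cell genes were split, 4 higher and 4 lower of 12 tested (median 0.27, and -0.14 without replicates 4 and 6). These shares were near those of all genes (34.6% and 31.1%). Cd79a was at 1.12 ± 0.36 (adjusted p = 0.000677), but Jchain (-3.72 ± 0.31), Pou2af1 (-3.66 ± 1) and Ms4a1 (-2.64 ± 0.68) were lower.

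Macrophage genes and class II genes followed the lymphocyte genes across the arrays. Of 15 tested macrophage genes 10 were higher and 1 lower, with a median of 2.45; the scavenger receptors Mrc1 and Cd163, on the list, were too dim in both channels to be tested. The complement chains C1qa (5.22 ± 1.19), C1qb (4.3 ± 1.59) and C1qc (4.96 ± 0.86), and the adaptor Tyrobp (3.98 ± 1.19) were higher. The 4 members not called were Adgre1 at 1.23 (adjusted p = 0.0878), Cd68 at 0.79 (adjusted p = 0.103), Lyz2 at 0.5 (adjusted p = 0.457) and Itgam at 0.13 (adjusted p = 0.262). A second Lyz2 probe was called lower at -0.81. The scavenger receptor Msr1 was lower at -1.67 ± 0.66, with Cy5 well above background on only 2 arrays and a value between -3.19 and -1.3 over the alternatives. Of the 8 genes for presentation on MHC class II 7 were higher and none lower (median 3.78). H2-Ab1 was at 5.13 ± 0.46, H2-Eb1 at 6.82 ± 0.8 and H2-Aa at 5.63 ± 1.57, while their chaperone Cd74 had 2.88, -0.13, 2.46, 4.93, 3.53 and 4.79 on replicates 1 to 6. Of 11 class I genes 5 were higher and 2 lower; B2m was at 1.19 ± 0.48 and the peptide transporter Tap1 at -1.72 ± 0.48. Of 13 genes shared by leukocytes 5 were higher, a share near that of all genes (34.6%), and none lower (median 0.93). Cd52 at 4.61 ± 0.92 and Laptm5 at 2.38 ± 1.36 led them. The count of 5 was 10 without replicate 2 and 3 without replicate 4, 5 or 6. The other 8 were not called, among them Ptprc (CD45) at 0.67 (adjusted p = 0.241), with 2 of its 4 probes called lower. Lcp1, called higher at 1.25, had a second probe called lower at -1.65.

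Across the arrays, replicate 2 had the lowest mean of the cytotoxic list (2.67, others 3.46 to 4.95), of macrophage genes (0.06, others 2.01 to 3.55), of class II genes (1.67, others 3.46 to 5.23) and of shared leukocyte genes (-0.91, others 0.66 to 2.56). Replicates 4 and 6 had the highest in all 4, and replicate 2 and replicate 4 share a slide. Replicate 2 also had the largest share of probes well above background in Cy5 (69.5%). The part of leukocytes in other results of these arrays was not tested.

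**Figure D3:**
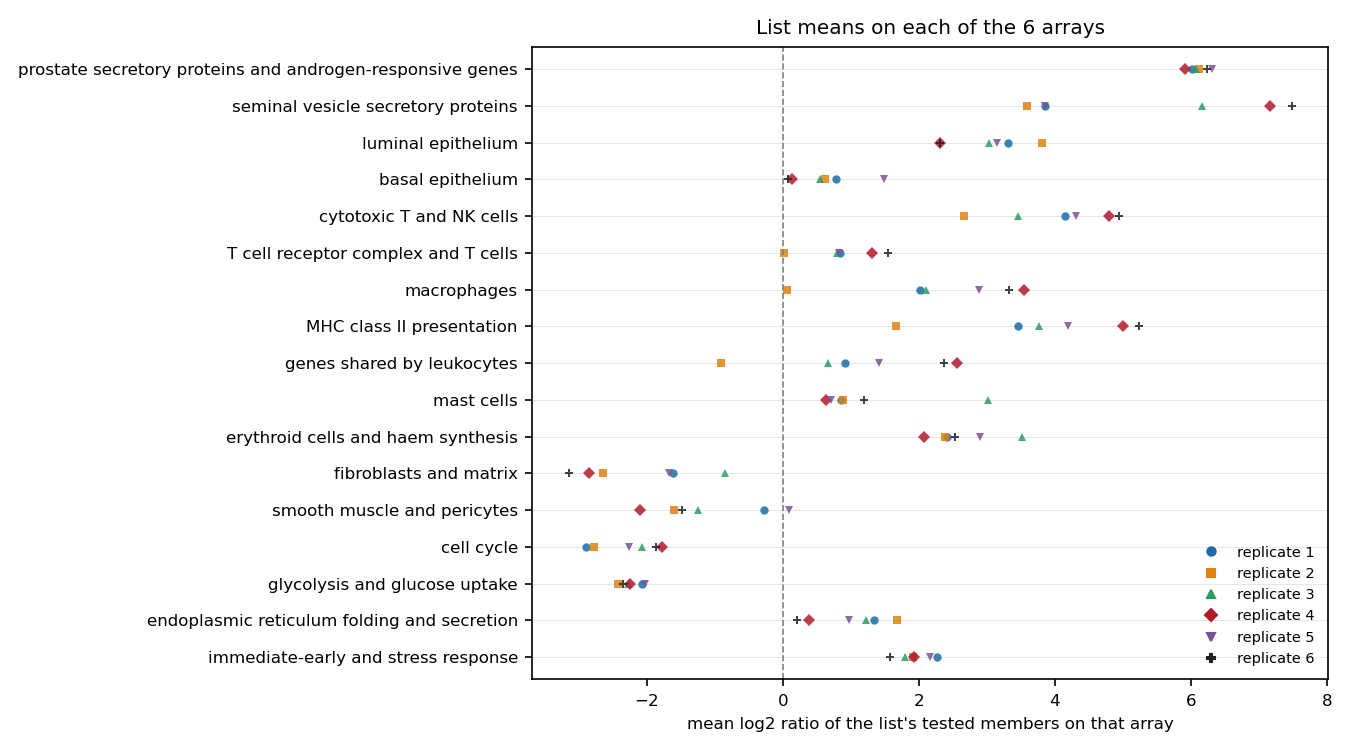
Mean log2 ratio of the tested members of 17 gene lists (x axis) on each of the 6 arrays, 1 symbol per array. Prostate secretory genes lie within 5.92 to 6.31, whereas shared leukocyte genes run from -0.91 on replicate 2 to 2.56 on replicate 4 and seminal vesicle genes from 3.59 to 7.48.

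Some mast cell and neutrophil genes stood out on replicate 3, and others did not. Of 9 tested mast cell genes only Gata2, a transcription factor of several cell types, was higher (5.22 ± 0.81, adjusted p = 5.84e-06). The mast cell proteases Cma1, Mcpt4 and Cpa3, named after their values were seen, had 6.76, 4.58 and 5.29 on replicate 3, and nowhere else more than 2.46, 0.56 and 0.33. None was called (adjusted p = 0.0521, 0.13 and 0.267 by limma), although Cma1 passed under 8 of the alternatives, with adjusted p = 0.0259 to 0.0498, and Mcpt4 under median centring (0.85, adjusted p = 0.0494) and without replicate 3 (0.37, adjusted p = 0.0446). S100a9, a granule protein of neutrophils, had 7.89 there and 0.3 to 0.73 on the other 5 arrays (adjusted p = 0.147, and 0.0129 without replicate 3). Kit, which mast cells carry, was highest on the same array (3.34). Other members of these lists, also not called, were less marked or went another way. Tpsb2 and Fcer1a were highest on replicate 3 too, at 0.81 and 1.35, and S100a8 was above 0 there alone (2.79). Hdc was highest on replicate 6 (2.74, against 2.21 on replicate 3) and Lcn2 on replicate 4 (1.75). Of 13 listed neutrophil genes 7 were too dim in both channels to be tested. Of the 6 tested, 1 was higher and 1 lower, the latter Mmp9 at -2.58 ± 0.7. Mmp9 was well above background in Cy5 on 1 array, so it passed the filter through the pool, and its value ran from -4.57 to -2.43 over the alternatives.

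Genes of red cells were mostly higher, some by little. Of 18 listed genes of erythroid cells and haem synthesis 10 were tested, 8 were higher and 2 lower (median 2.56, and 0.79 without the signal filter). Alas2, the first enzyme of haem synthesis in red cells, was at 5.8 ± 0.54 (5.24 to 6.71, adjusted p = 9.09e-07) and Car2, a carbonic anhydrase that epithelia also make, at 5.69 ± 0.32. The globins Hba-a1 (5.62 ± 0.81) and Hbb-bt (4.93 ± 0.62), which have near-identical copies, were higher too, and the 4 probes of Hbb-bt lay between 4.93 and 9.28. Gata1, a transcription factor of red cell precursors, was at only 0.23 ± 0.04. The 2 lower members were Fech, the last enzyme of haem synthesis, at -1.45 ± 0.9 with a second probe at 0.19, and the red cell factor Klf1 at -0.37 ± 0.25, which was well above background in Cy5 on none of the arrays. Fech and Klf1 were below 0 on all 6 arrays.

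Genes of cell division were lower almost without exception. All 32 listed cell cycle genes were tested, 30 were lower (all genes, 31.1%) and none higher, with a median of -2.4. The replication helicase subunit Mcm7 (probe on chromosome 5, 137110218 to 137110277) had -3.51, -3.27, -3.35, -2.64, -2.72 and -2.75 on replicates 1 to 6 (-3.04 ± 0.38, adjusted p = 4.73e-06). The ribonucleotide reductase subunits Rrm1 and Rrm2 were at -3.03 ± 0.39 and -3.08 ± 0.35, and the mitotic kinases Aurka and Plk1 at -2.68 ± 0.35 and -2.51 ± 0.32. The 2 not called were Pcna (-0.27) and E2f1 (-0.39). The list's mean was lowest on replicates 1 (-2.9) and 2 (-2.77) and highest on replicates 4 (-1.78) and 6 (-1.86).

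Glycolysis was lower to a like degree and with little spread. Of 18 tested genes 16 were lower and none higher, with a median of -2.59, and the list's mean stayed between -2.42 and -2.02 on the 6 arrays. The glucose transporter Slc2a1 was at -3.38 ± 0.19 (-3.69 to -3.18, adjusted p = 5.84e-07), lactate dehydrogenase Ldha at -3.07 ± 0.36, pyruvate kinase Pkm at -2.66 ± 0.13, Tpi1 at -2.17 ± 0.24 and Gpi1 at -2.57 ± 0.12, the last with a second probe at 1.29. Genes of oxidative phosphorylation did not share a direction: 9 were higher and 12 lower of 29 tested (median -0.2). The complex subunits Ndufa1 (2.82 ± 0.33) and Uqcrb (1.74 ± 0.14) were higher, while Ndufs1 (-1.66 ± 0.23), Atp5b (-1.58 ± 0.39) and Ndufb8 (-1.19 ± 0.41, with a second probe at 0.12) were lower. Cytosolic ribosomal protein genes were split as well, 8 higher and 15 lower of 30, with a median of -0.36 that turned to 0.27 under median centring. They ranged from Rpl32 (1.5 ± 0.31) and Rpl37 (1.33 ± 0.18) to Rpsa (-2.5 ± 0.31), Rpl13 (-2.8 ± 0.32) and Rpl4 (-3.55 ± 0.45). Each of these 5 kept its side of 0 on every array, but other probes of Rpl37, Rpsa and Rpl13 were at 0.04, -0.35 and -0.48.

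Genes for folding and export of proteins in the endoplasmic reticulum leaned upwards. Of 24 tested, 13 were higher and 1 lower, with a median of 1.03. Herpud1, of the degradation machinery, was at 2.98 ± 0.37 (adjusted p = 4.24e-06), the translocon parts Ssr4 and Sec61b at 2.5 ± 0.58 and 2.41 ± 0.69, Sdf2l1 at 2.33 ± 0.78 and the chaperone Calr at 1.74 ± 0.53. Xbp1, a transcription factor of this response, was the member called lower (-2.09 ± 0.39, adjusted p = 5.29e-05). The list's mean was 0.39 on replicate 4 and 0.21 on replicate 6 against 0.98 to 1.68 on the others.

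The endoplasmic reticulum stress element, which is CCAAT and CCACG with 9 bases of any kind between them, is the promoter motif through which this response acts on its targets. On either strand of the 250 bases before the start it was in 7 of the 21 tested list members that have an entry in RefSeq's GRCm38.p6 table (33.3%), and in 0.13% of all 27025 symbols. Windows round it are shown for the 3 of the 7 that were called higher, and for Hspa5, the main chaperone of the compartment, which was not, with the element in capitals. The window of Calr is chr8:84847063-84847105, minus strand, that of Dnajc3 chr14:118937815-118937857, plus strand, that of Creld2 chr15:88819508-88819550, plus strand, and that of Hspa5 chr2:34772013-34772055, plus strand.
Calr: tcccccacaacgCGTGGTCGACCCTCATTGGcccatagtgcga
Dnajc3: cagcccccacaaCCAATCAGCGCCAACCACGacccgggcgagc
Creld2: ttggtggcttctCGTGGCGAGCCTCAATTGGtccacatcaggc
Hspa5: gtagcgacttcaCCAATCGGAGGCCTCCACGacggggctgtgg
Dnajc3, a co-chaperone, was at 1.11 ± 0.62 (adjusted p = 0.00347, and 0.48 with adjusted p = 0.22 under median centring). Creld2 was at 1.02 ± 1.08 (adjusted p = 0.035), and its call was lost without replicate 1, 2, 3 or 5 (0.82 to 0.98). Hspa5 had 1.04, 1.8, 0.32, 0.08, 0.45 and -0.75 on replicates 1 to 6 (adjusted p = 0.168). Without replicate 6 it passed (0.74, adjusted p = 0.0377), as it did without replicates 4 and 6 (0.9, adjusted p = 0.0276). The other 3 promoters with the element, of Hsp90b1, Pdia6 and Canx, belong to genes that were not called, so holding the element and being called higher did not go together one to one. The match describes letters in the promoter, not use of the site.

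Immediate-early and stress genes, which cells switch on within minutes of a stimulus, were higher as a group. Of 27 tested, 20 were higher and 3 lower, with a median of 1.88. The heat shock gene Hspa1a was at 6.73 ± 0.63, with 6.46, 6.11, 6.37, 7.59, 6.39 and 7.45 on replicates 1 to 6 (adjusted p = 6.08e-07). Fosb was at 4.81 ± 0.39, Atf3 at 4.29 ± 0.38, Nr4a1 at 3.08 ± 0.4 and Egr2 at 2.83 ± 0.37, all higher on every array. Ier3 (-1.68 ± 0.44) and Fosl1 (-1.65 ± 0.57) were lower. The cells were dissociated and sorted before lysis and the pool was not, a difference in handling that cannot be told apart from the tissue.

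Genes of zinc, polyamine and citrate metabolism, in which the prostate is specialised, went both ways, 11 higher and 7 lower of 22 (median 0.48). The zinc transporters Slc30a2 (4.71 ± 0.76, adjusted p = 1.08e-05) and Slc39a8 (3.63 ± 0.94, with a second probe at 1.15) and the metallothionein Mt3 (2.84 ± 0.4) were higher, and the zinc transporter Slc30a4 (-2.26 ± 0.27) lower. Of the Hox genes of groups 9 to 13, which pattern the hind body, 5 were higher and 2 lower of 14 tested (median 0.21). The share called higher was near that of all genes (34.6%). Beside Hoxb13, Hoxd13 was higher at 2.21 ± 1.03, and Hoxc9 was lower at -4.18 ± 0.71 (-5.13 to -3.08, adjusted p = 1.49e-05). Both passed the filter in the brighter channel alone, Hoxd13 with Cy3 well above background on 1 array and Hoxc9 with Cy5 on 2, so the size of each ratio rests on a channel near background and ran from 1.85 to 5.04 and from -6.21 to -3.99 over the alternatives. Of Hox genes of groups 1 to 8, 5 were higher (all genes, 34.6%) and 9 lower (all genes, 31.1%) of 18 tested. Of these 18, 5 passed the signal filter in Cy3 alone, which favours a lower ratio. Their median of -0.52 turned to 0.9 among genes measured in both channels on all arrays. Hoxa3 was at 2.58 ± 0.97, with a second probe at -0.25, and Hoxc6 at -2.31 ± 0.48.

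Interferon-stimulated genes, which cells induce against viruses, had few higher members. Of 21 tested, 3 were higher (all genes, 34.6%) and 8 lower (all genes, 31.1%), with a median of -0.56. Of the 21, 3 passed the signal filter in Cy3 alone, and with both channels required on all arrays the median was -0.1. Usp18, a deconjugase induced by interferon, was at -2.79 ± 0.45 (adjusted p = 2.22e-05) and Ifi44 at -3.5 ± 1.16, the latter well above background in Cy5 on 1 array and between -6.53 and -2.29 over the alternatives, while Rsad2 was at 1.84 ± 1.02 (adjusted p = 0.00245, and 0.19 with adjusted p = 0.348 on the mean of its probes). Of 8 linker histone genes 4 were higher and 1 lower (median 0.79). H1f3 was at 3.88 ± 0.8, with a second probe at 0.1, H1f2 at 1.9 ± 0.62 and H1f0, a histone of resting cells, at -1.43 ± 0.36.

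Lists chosen for what a pool of cultured lines may hold were lower in part (all genes, 34.6% higher and 31.1% lower). Of 13 tested oncofetal and imprinted genes 9 were lower and 1 higher (median -1), with Dlk1 at -3.35 ± 0.34 (adjusted p = 2.45e-06), Igf2bp2 at -3.35 ± 0.89 and Grb10 at -2.89 ± 0.77, with 1 probe at 0.32. Of 15 myoblast genes 9 were lower and 2 higher (median -0.98, and -0.21 with both channels required on all arrays). Of these 15, 4 passed the signal filter in Cy3 alone, which favours a lower ratio, as did 2 of the oncofetal and imprinted genes. Of 10 hepatocyte genes 5 were higher and 1 lower (median 0.58); Afp, the fetal liver protein, was at -3.46 ± 0.95 and well above background in Cy5 on 1 array, and Trf (transferrin) was at 2.33 ± 0.84. Of 11 genes of pluripotency and the germ line 7 were higher and 3 lower (median 0.47), with Pou5f1 at 2.57 ± 1.14; Nanog and Sox2 were too dim in both channels to be tested.

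Spread over the arrays differed from gene to gene. Among 13157 named genes with Cy5 signal well above background on 5 or 6 arrays, the median SD over the 6 arrays was 0.492, and 84 had an SD of at least 2. The largest was that of Akr1b7, an aldo-keto reductase of the vas deferens and adrenal (4.11), with -0.63, -0.95, 3.77, 7.26, -1.03 and 7.6 on replicates 1 to 6, so that its mean of 2.67 passed no test (adjusted p = 0.11). Wfdc15b (SD 3.06), a secreted protease inhibitor, and Defb42 (SD 2.94), a defensin of the epididymis, were highest on the same arrays, replicates 3, 4 and 6, as was Svs4. Ceacam10 had 6.01 and 6.25 on replicates 4 and 6 and at most 1.75 elsewhere (2.78 ± 2.63, adjusted p = 0.0215), and its call ended without either (2.13 and 2.08, adjusted p = 0.055 and 0.0531). Ifnb1, the beta interferon gene, ranged from 0.02 on replicate 2 to 7.4 on replicate 4, and Ch25h, which makes an antiviral oxysterol, from -0.66 on replicate 3 to 6.36 on replicate 6; its call (adjusted p = 0.00872) was lost without replicates 4 and 6 (2.39, adjusted p = 0.0743).

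**Figure D4:**
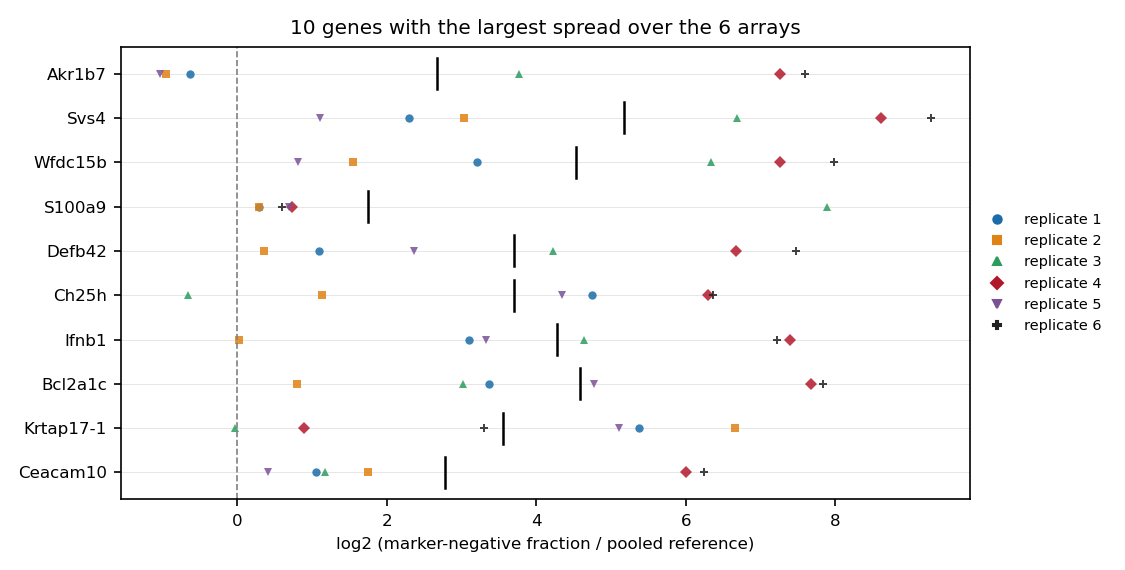
Log2 ratios of fraction over pool (x axis) on each of the 6 arrays for the 10 named genes with the largest SD among those with Cy5 signal well above background on 5 or 6 arrays; the black bar is the mean. For Akr1b7, Svs4, Wfdc15b and Defb42, replicates 3, 4 and 6 are the highest, and S100a9 is high on replicate 3 alone (7.89).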

How the data were processed

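RNA of sorted marker-negative cells and a common reference were measured on 6 two-colour Agilent mouse arrays. Per the labels' protocols, the sorted cells' RNA was purified by PicoPure, amplified by Message Amp II and labelled by Quick Amp. The deposited scanner files hold spot intensity values of both channels, with local background, written by Feature Extraction (version 10.7 in the submitters' processing notes, 10.7.3.1 in the headers). Per the file headers, this software also subtracted background and normalized the dyes to give its processed signals. The files give no batch beyond the slide: 6 arrays on 4 slides.

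Mean intensities were corrected with limma 3.58.1 (R 4.3.3) by normexp on the median local background, with an offset of 50, and log2 ratios of Cy5 over Cy3 were normalized by loess within each array. Control spots had weight 0, outlier spots were dropped, and replicate spots were averaged per probe. The test took 30847 of 41174 probes, those with signal well above background in 1 channel or the other on 4 arrays or more. An intercept alone was fitted over the 6 arrays (trend and robust variance, two-sided), with Benjamini-Hochberg adjustment over all tested probes and a threshold of 0.05. A gene is its tested probe of highest mean intensity over both channels. Probes were named through RefSeq's gene table for GRCm38.p6, by accession or symbol; 16596 of the 20936 genes have a current symbol, and 8452 probes kept the name in the file. Bounds used channel values after Aquantile normalization. The number of arrays limits the precision.

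The members, the 36 lists (627 genes) and the rule for named genes were chosen with earlier results of these data known, so a list's direction is no independent evidence. The rule took the 12 highest and 12 lowest genes with the same sign on all arrays and signal in both channels, the 10 largest bounds each way, the sort markers, up to 5 members per list in the leading direction and 3 in the other by adjusted p, the 10 largest SDs and the granzymes; Sbp, Creld2, Dnajc3, the list members given as not called and those too dim to test were named after their values were seen. Some other motifs were searched in other lists and are not reported. Promoters were searched in 250 bases before each start (32851 entries). The fit was tested on simulated data. The authors' deposited table compares the 2 fractions, holds no value against the reference, and was not used. Alternatives changed background correction, normalization, signal filter, probe rule, variance model, slide, threshold and the arrays used. Some genes that the rule names are not reported here. Plots were drawn with matplotlib 3.10.9.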

Additional observations from a re-analysis of the deposited data

Results flagged for a closer look

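A value was picked out here when 1 of the 6 arrays lay far from the other 5, by a gap whose share of the whole range passed Dixon's critical value for 6 samples. Chance picks about 1 in 20 groups, and 14 of 208 were picked. Replicate 3 was the high array for the mean of the mast cell list (3.02, next 1.2) and of the neutrophil list (1.83, next -0.18), and for S100a9 (7.89, next 0.73), Cma1 (6.76, next 2.46), Cpa3 (5.29, next 0.33) and Mcpt4 (4.58, next 0.56). It was the low array for Egr2 (2.09, next 2.87). Replicate 2 was the low array for the mean of the interferon-stimulated list (-1.41, next -0.41) and for Cd83 (4.36, next 7.59), C1qa (2.92, next 5.25), Tyrobp (1.66, next 3.83), Laptm5 (-0.26, next 2.22) and H2-Eb1 (5.29, next 6.72). Replicate 5 was the high array for Gzmm (1.52, next 0.78). Without replicate 3, S100a9 fell to 0.52 (adjusted p = 0.0129), Cma1 to 1.1 (adjusted p = 0.0259) and Mcpt4 to 0.37 (adjusted p = 0.0446), all 3 past the threshold once that array's spread was gone.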

How the results depend on the processing

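Of 3865 values of named genes under the alternatives, 3809 kept their direction and side of the threshold, 39 lost the call, 16 gained it and 1 reversed. This was Sfn (-1.5, against 0.73 on the mean of its probes, which disagree). No paired analysis was possible because replicate numbers follow accession order and only 1 fraction enters the fit. The median of all genes moved by -0.28 with processed signals, -0.19 with median centring, 0.23 with both channels required and 0.16 with Cy5 required, and calls were 42.7%, 44.1%, 62.9% and 60.6% higher in place of 52.7%.

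Tested against a 2-fold minimum, there were 1520 genes higher than the pool and 1596 genes lower than the pool. Higher members then numbered 2 in the proximal duct list, 1 neuroendocrine, 2 endothelial, 2 T cell, 5 macrophage, 5 erythroid, 2 shared leukocyte, 2 nerve, 1 hepatocyte, 1 pluripotency, 7 endoplasmic reticulum, 12 immediate-early, 2 Hox 9 to 13 and 0 class I; lower members numbered 4 smooth muscle, 3 myoblast, 4 oncofetal and 2 interferon-stimulated. With both channels required on all arrays, which tests fewer genes, there were 3595 genes lower than the pool, 2 seminal vesicle, 4 endothelial and 2 hepatocyte members were higher, and 3 myoblast and 4 interferon-stimulated members lower. Medians became 0.73 for B cells, 4.39 erythroid, 1.14 hepatocyte, -0.21 myoblast, 0.71 pluripotency, 0.83 Hox 9 to 13, 0.9 Hox 1 to 8, 0.74 polyamine, -0.1 interferon-stimulated and 1.53 linker histone. With Cy5 required, medians were 3.85 erythroid, 0.78 hepatocyte, 0.75 pluripotency and 1.53 linker histone, and 5 myoblast members were lower. Without a filter, medians were 6.03 secretory, 3.1 cytotoxic, 0.79 erythroid, 0.23 hepatocyte and 0.22 pluripotency.

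With median centring, medians were 6.16 secretory, 0.41 T cell, -1.73 oncofetal, 0.27 ribosomal, -2.3 glycolysis, 0.06 polyamine and -1.09 interferon-stimulated, and 3 shared leukocyte members were higher. With processed signals, medians were 7.56 seminal vesicle, 3.74 luminal, 1.01 hepatocyte, -1.94 myoblast, 0.68 pluripotency, -1.67 oncofetal, -2.91 cell cycle, -2.68 glycolysis and -1.29 Hox 1 to 8, and 4 endothelial, 3 nerve and 3 hepatocyte members were higher. With plain subtraction, medians were 3.53 luminal, 0.61 B cell, 1.12 hepatocyte, -1.64 myoblast, 0.81 pluripotency and -0.77 Hox 1 to 8, and with an offset of 16, 0.77 hepatocyte, -1.43 myoblast and 0.61 pluripotency. On the mean of a gene's probes, medians were -1.79 fibroblast, 0.36 hepatocyte, -0.6 ribosomal, -2.1 glycolysis and 0.2 polyamine, and 3 shared leukocyte members were higher. With the spread of all 9 arrays 4 endothelial members were higher, and on slide means 10 shared leukocyte members.

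Leaving out 1 array at a time gave 4 to 7 higher endothelial members, 3 to 10 shared leukocyte members and a glycolysis median of -2.63 to -2.48. Without replicates 4 and 6, an alternative chosen after seeing the data, the B cell median was -0.14, the glycolysis median -2.48, and 3 shared leukocyte and 8 Hox 9 to 13 members were higher. The cause of these shifts was not tested. Genes near background, above all those with Cy5 signal on few arrays, are the least precise.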
